A study of Homo sapiens with 3 samples.

Results

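PCSK1-positive glucagon cells are stem-cell-derived islet cells that make glucagon and carry at least 1 counted RNA molecule (UMI) of PCSK1. They were chosen from 3 single-cell libraries by their own RNA: at least 1000 genes, at least 5000 UMIs and mitochondrial genes at 20% of UMIs or less, GCG (glucagon) at 5% of UMIs or more, INS (insulin) and SST (somatostatin) each under 1%, and PCSK1 at 1 UMI or more. The rule found 37, 37 and 68 cells in replicates 1, 2 and 3, which is 142 cells of 9683 barcodes, of 3258 cells past the gene, UMI and mitochondrial limits, and of 2311 glucagon cells. The PCSK1-negative cells they were set against are the remaining 739, 663 and 767 glucagon cells (2169 in all) of the same libraries, which pass the same limits and hold no PCSK1 UMI.

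All cells came from clusters differentiated by a published alpha-cell protocol from HUES8, a human embryonic stem cell line in wide use. RNA was counted with the 10x Genomics 3' v3 assay, which reads the 3' end of transcripts and tags each molecule. The 3 libraries form a single group with no treatment or genotype contrast, so every comparison lies within libraries. A single cell line was used, and the labels do not say whether the replicates were separate differentiations. The p-values rest only on how the difference within libraries varies over these libraries, which may be technical. That spread is estimated in part from other genes, so a p-value does not measure a gene's own spread alone.

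PCSK1 encodes prohormone convertase 1/3, an endopeptidase of secretory granules. In alpha cells of the islet, proglucagon is cut mainly by the related convertase PCSK2 to give glucagon, whereas in gut L cells and some neurons PCSK1 cuts it to give GLP-1. PAM, which amidates the end of peptides such as GLP-1, and the carboxypeptidase CPE act after the convertases.

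The promoter of PCSK1 is known for a cAMP response element, a site of the CREB family of factors. The stretch that holds it is shown beside that of VGF, a granin described further on, whose level did not pass the threshold. Whether the site acts on either gene in these cells was not tested. Each is 100 bases on the minus strand, ending just before the start site, from RefSeq (GRCh38.p14), and the capitals mark TGACGTCA or TGACGT. The PCSK1 stretch is chr5:96433249-96433348 and the VGF stretch is chr7:101165570-101165669.
PCSK1: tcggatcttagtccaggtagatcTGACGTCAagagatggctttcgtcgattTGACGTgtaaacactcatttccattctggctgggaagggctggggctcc
VGF: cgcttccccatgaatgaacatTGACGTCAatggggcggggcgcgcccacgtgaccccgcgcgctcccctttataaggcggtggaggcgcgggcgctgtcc
The full motif TGACGTCA starts 77 bases before the PCSK1 start site and 79 before that of VGF. It occurs in 649 of 35116 promoter windows of 300 bases in the table, or 1.85%. TGACGT, searched on both strands and contained in TGACGTCA on both, occurs in 2803 windows, or 7.98%. A further PCSK1 window of the table, for another start site, held neither motif.

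Cells with a PCSK1 UMI were a small share of glucagon cells. They were 37 of 776 in replicate 1 (4.77%, exact Clopper-Pearson 95% interval 3.38 to 6.51), 37 of 700 in replicate 2 (5.29%, 3.75 to 7.21) and 68 of 835 in replicate 3 (8.14%, 6.38 to 10.2), a mean of 6.07% ± 1.82 (SD, n = 3). These values chose the cells and are a description, as are those of GCG, INS and SST, and the intervals cover counting error only. Summed over glucagon cells, PCSK1 stood at 3.42, 2.76 and 10.7 CPM (UMIs per 1000000 UMIs), highest in replicate 3, the library with the fewest UMIs per glucagon cell.

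Most of the cells were called on a single molecule. Of the 142 cells, 104 (73.2%) had 1 PCSK1 UMI, 27 had 2, 7 had 3, 3 had 4 and 1 had 6, for 197 UMIs in all. When each cell was thinned to 5000 UMIs, 11, 9 and 33 glucagon cells kept a PCSK1 UMI (1.42%, 1.29% and 3.95%, a mean of 2.22% ± 1.503).

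Collagen cells, taken here not to make PCSK1, were used as a guide to the level that free RNA in the droplets can give. Free RNA was not measured directly, and whether these cells make PCSK1 or hold doublets was not tested. These are cells with 0.2% of UMIs or more from COL1A1, COL1A2 and COL3A1 and GCG under 1%. Of them 0 of 8, 0 of 8 and 3 of 68 had a PCSK1 UMI in replicates 1, 2 and 3. The 3 of 68 is 4.41% (0.919 to 12.4), with 4.04 CPM, and stayed at 3 of 68 after thinning. A count of 0 of 8 cells, taken as up to 3 counts, allows a share of up to 37.5%, and its exact interval reaches 36.9%. Median depths were 16675, 22710 and 10626 UMIs in glucagon cells, against 15411.5, 9811.5 and 9445.5 in collagen cells. In replicate 3, which has most of the collagen cells, glucagon cells had a share of 8.14% and 10.7 CPM with all UMIs, against 4.41% and 4.04 CPM in collagen cells, and a share of 3.95% after thinning, against 4.41%. Cells with 2 or more PCSK1 UMIs were 22 of 835 glucagon cells (2.63%), against 0 of 68 collagen cells, which allows up to 4.41%. The share intervals overlap. The order of the shares turns with 1 random draw of the thinning, which kept all 3 PCSK1 UMIs of the collagen cells. No order is therefore read from the shares, and a single PCSK1 UMI in a glucagon cell cannot be told apart from free RNA.

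Cells of other kinds carried PCSK1 far more often. TPH1 cells have 3 or more UMIs of TPH1, the rate-limiting enzyme of serotonin synthesis in enterochromaffin cells, and GCG under 5%. Of them 12 of 31, 5 of 15 and 43 of 88 were PCSK1-positive (38.7%, 33.3% and 48.9%, a mean of 40.3% ± 7.89), with 75.1, 26.6 and 159 CPM. The share was also high in the few cells with SST at 5% of UMIs or more (14 of 20 over the libraries) and in those with INS at 5% or more (4 of 10), though 27 of the 28 PCSK1 UMIs of insulin-rich cells in replicate 3 lay in 1 cell.

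**Figure D1:**
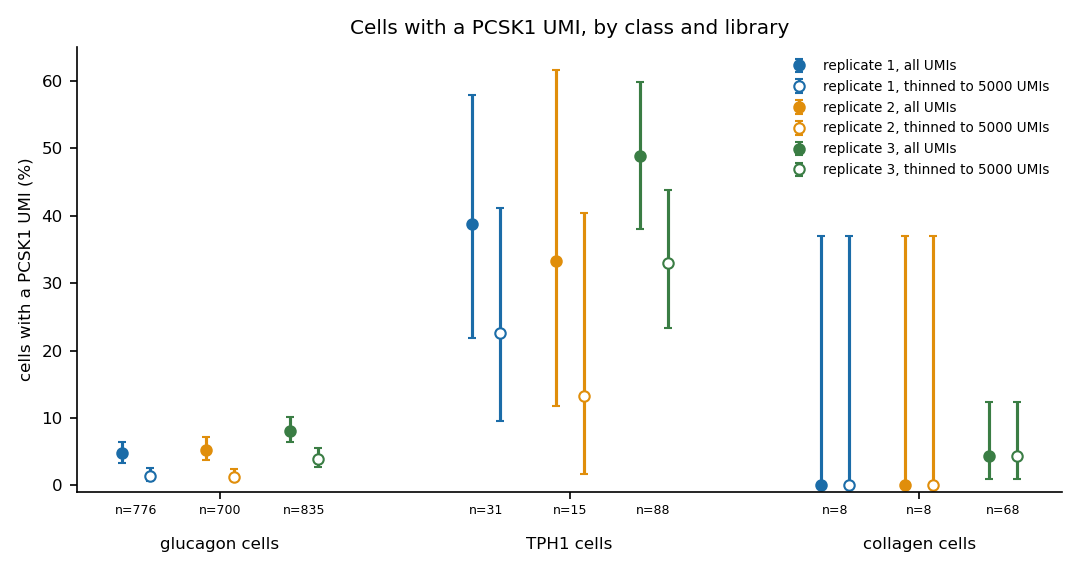
Share of cells with at least 1 PCSK1 UMI (vertical axis, percent) in glucagon, TPH1 and collagen cells, by library (colour), with all UMIs (filled) and after thinning each cell to 5000 UMIs (open). Bars are exact 95% intervals and n is the number of cells. Glucagon cells lie between 4.77% and 8.14% with all UMIs and between 1.29% and 3.95% thinned, within the range of the collagen intervals, and TPH1 cells lie between 33.3% and 48.9%.

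The PCSK1-positive share was also counted by GCG share and by depth. Just inside the GCG limit, at 5 to 6% of UMIs, 14 of 105 cells had a PCSK1 UMI (16 UMIs), and just outside it, at 4 to 5%, 7 of 94 (9 UMIs). With the glucagon cells of each library ranked by GCG share into 3 equal groups, low to high, the PCSK1-positive share was 7.72%, 4.26% and 2.32% in replicate 1, 6.87%, 6.01% and 2.99% in replicate 2, and 8.63%, 10.4% and 5.38% in replicate 3. With all UMIs it was lowest among the cells richest in GCG in every library. At 5000 UMIs it was 2.32%, 0.775% and 1.16%, then 2.58%, 1.29% and 0, then 4.32%, 5.04% and 2.51%, and so lowest there in replicates 2 and 3 only. The 0 is of 234 cells, which allows up to 1.28%. Ranked by total UMIs in the same way, it was, with all UMIs, 4.25%, 4.26% and 5.79%, then 4.72%, 4.72% and 6.41%, then 6.83%, 5.40% and 12.2%, and highest among the deepest cells in every library.

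GCG itself stood at 116254, 138092 and 109250 CPM of thinned UMIs in PCSK1-positive cells, against 148846, 158642 and 123901 CPM in PCSK1-negative cells. INS was 649, 1584 and 285 CPM in PCSK1-positive cells, against 1290, 1525 and 371 CPM in PCSK1-negative cells, so only replicates 1 and 3 were lower. SST was 1222, 1227 and 335 CPM in PCSK1-positive cells, against 627, 889 and 619 CPM in PCSK1-negative cells, higher in replicates 1 and 2 and lower in replicate 3.

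**Figure D2:**
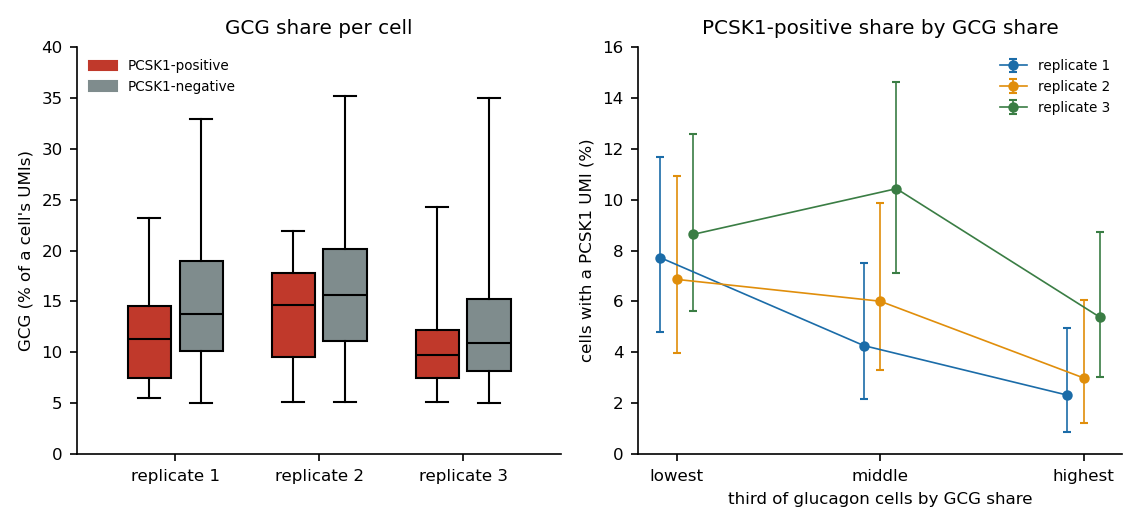
Left, GCG as a percent of each cell's UMIs in PCSK1-positive (red) and PCSK1-negative (grey) glucagon cells of each library; boxes are quartiles, lines medians and whiskers the lowest and highest cell. Medians are 11.3%, 14.7% and 9.74% in PCSK1-positive cells, against 13.8%, 15.7% and 10.9% in PCSK1-negative cells. Right, PCSK1-positive share with exact 95% intervals in glucagon cells ranked by GCG share, counted on all UMIs, with the highest group lowest in each library.

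The libraries held 30139788, 31122791 and 30980799 UMIs in 2850, 2576 and 4257 barcodes, and shared 1 to 4 barcodes between pairs, none of them a glucagon cell in both. PCSK1-positive cells were deeper, with medians of 18322, 24943 and 12129.5 UMIs, against 16606, 22621 and 10581 in PCSK1-negative cells. All levels below are therefore CPM of UMIs summed over cells thinned to 5000 UMIs. At that depth the median number of genes per cell was still 1897, 1891 and 1902.5 in PCSK1-positive cells, against 1813, 1801 and 1852 in PCSK1-negative cells. The mitochondrial percentage had medians of 14.9%, 14.7% and 15.9%, against 15.1%, 15.1% and 15.04%, and Scrublet called 5 of 142 PCSK1-positive cells doublets (3.52%), against 35 of 2169 PCSK1-negative cells (1.61%).

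PCSK1-positive cells had more RNA of CRH, a neuropeptide hormone, of NEFM, a neurofilament subunit, and of the granin SCG2, and less of SPINK1, a secreted trypsin inhibitor, and of the liver-type secretory genes AFP and APOC3. Under alternative settings of the processing, SPINK1 passed in 20 of 20, CRH in 19 of 20 and NEFM in 17 of 19. SCG2, AFP and APOC3 were less stable, passing in 11, 14 and 13 of 20. Few genes differed: of 10161 tested with edgeR's quasi-likelihood test and the library as a block, 13 passed a Benjamini-Hochberg adjusted p of 0.05 (0.128%). Of them 8 were higher (0.0787%) and 5 lower (0.0492%). An unadjusted p under 0.05 was reached by 507 genes (4.99%). The median log2 fold change over all genes was -0.02, with 4849 above 0 and 5312 below. Sums of the 3 libraries did not overlap for 812 genes that were higher (7.99%) and 611 that were lower (6.01%). Just short of the threshold, at an adjusted p of 0.0576, stood VGF, SEZ6L at 0.85 ± 0.20 and the growth factor receptor gene ERBB3 at -0.67 ± 0.15.

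**Figure D3:**
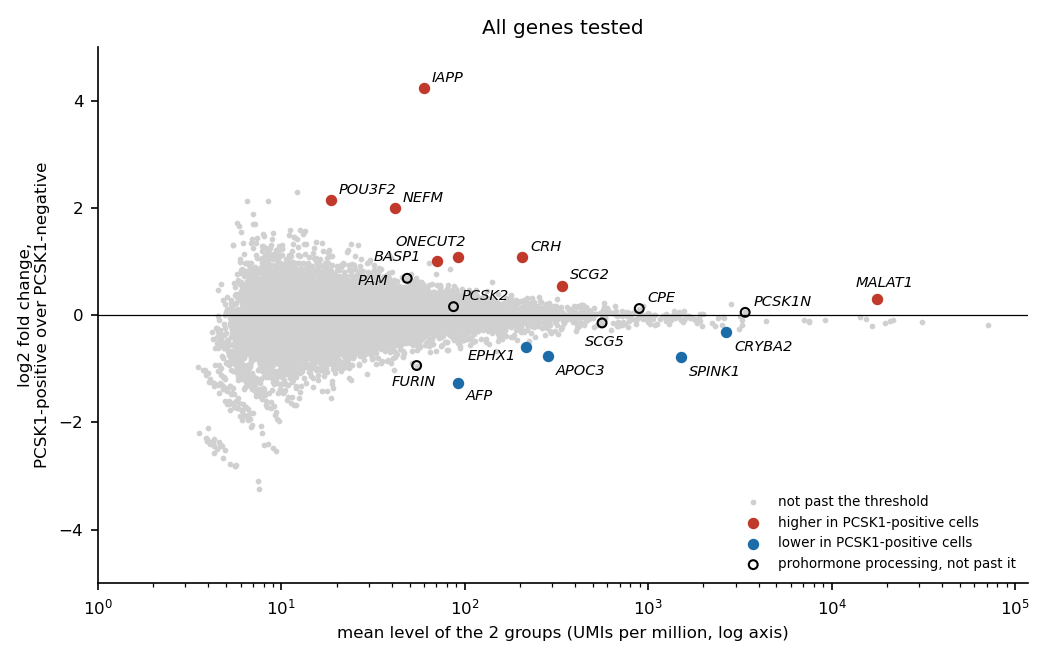
Log2 fold change of PCSK1-positive over PCSK1-negative glucagon cells (vertical axis) against the mean level of the 2 groups in CPM (log axis), for all 10161 genes tested. Red and blue points passed the threshold as higher and lower, black rings are prohormone-processing genes that did not, and grey points are the rest. CRH, SPINK1 and MALAT1 stand apart at high levels, whereas IAPP at a log2 fold change of 4.23 rests on 3 cells.

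Of the 10 prohormone-processing genes tested, none passed the threshold, 7 were above 0 and 3 below, and their median log2 fold change was 0.09, beside -0.02 over all genes. DESeq2 called none of them either. With edgeR 3 of the 10, PAM, FURIN and the carboxypeptidase M gene, had an unadjusted p under 0.05, beside 4.99% of all genes. PCSK2, the convertase that releases glucagon, stood at 70.3, 86.5 and 124 CPM in PCSK1-positive cells, against 81.7, 56.7 and 102 CPM in PCSK1-negative cells. The groups overlapped, and the log2 fold change was 0.16 ± 0.18 (SE).

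PAM stood at 75.7, 81.1 and 32.4 CPM in PCSK1-positive cells, against 36.3, 34.4 and 31.6 CPM in PCSK1-negative cells. Nearly all of the excess lay in replicates 1 and 2, and the log2 fold change of 0.69 ± 0.27 had an adjusted p of 0.824. Without thinning, where PCSK1-positive cells are the deeper ones, PAM passed the threshold at 0.86. In TPH1 cells it stood at 135, 213 and 88.6 CPM.

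FURIN, a convertase of the constitutive secretory route, stood at 54.1, 37.8 and 29.4 CPM in PCSK1-positive cells, against 70.1, 65.2 and 71.4 CPM in PCSK1-negative cells. The groups did not overlap, but the log2 fold change of -0.94 ± 0.26 had an adjusted p of 0.313, and another random draw of the thinning gave -0.07. CPE was at 930, 897 and 1041 CPM, against 836, 806 and 856 CPM (0.12 ± 0.079). PCSK1N, which encodes the PCSK1 inhibitor proSAAS, was at 3449, 3438 and 3732 CPM in PCSK1-positive cells, against 2978, 3275 and 3401 CPM in PCSK1-negative cells (0.05 ± 0.063), and SCG5, the 7B2 chaperone of PCSK2, at -0.14 ± 0.097. The carboxypeptidase M gene, whose symbol is also CPM, had 13, 5 and 4 UMIs in PCSK1-positive cells, and its log2 fold change of 1.10 ± 0.42 did not pass. CPD, PCSK7 and QPCT lay between -0.29 and 0.18.

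Among the 5 granins, the acidic proteins that fill secretory granules, SCG2 alone passed. Secretogranin II (chr2:223596940-223602503, GRCh38) stood at 303, 438 and 500 CPM in PCSK1-positive cells, against 225, 217 and 353 CPM in PCSK1-negative cells. It was higher in 3 of 3 libraries, though the groups overlap, and the log2 fold change was 0.55 ± 0.11 (adjusted p = 0.00858). It did not pass without replicate 2 (0.41) or without replicate 3 (0.64), nor with DESeq2 or another random draw of the thinning.

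VGF, the precursor of several neuroendocrine peptides, stood at 59.5, 119 and 82.4 CPM in PCSK1-positive cells, against 36.5, 44.6 and 42.5 CPM in PCSK1-negative cells. The groups did not overlap, but the log2 fold change of 0.97 ± 0.22 just missed the threshold (adjusted p = 0.0576), and another random draw gave 0.48. CHGA, the most abundant granin, was at 10643, 12832 and 4268 CPM, against 11039, 12370 and 4333 CPM (-0.09 ± 0.057), CHGB at 0.14 ± 0.087 and SCG3 at -0.14 ± 0.11. The median of the granins was 0.14.

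Of 20 islet and gut hormones other than the 3 of the rule, 8 had enough counts to test, 7 had no UMI in PCSK1-positive cells and 2 passed, both higher. CRH, corticotropin-releasing hormone (chr8:66176382-66178725), stood at 281, 265 and 312 CPM in PCSK1-positive cells, against 129, 95.02 and 155 CPM in PCSK1-negative cells. Every PCSK1-positive value lies above every PCSK1-negative one, and the log2 fold change was 1.08 ± 0.12 (adjusted p = 2.02e-07). At 5000 UMIs a CRH molecule was found in 48.6%, 48.6% and 45.6% of PCSK1-positive cells, against 29.1%, 25.8% and 30.6% of PCSK1-negative cells. Collagen cells had 0, 0 and 2.94 CPM of CRH and TPH1 cells 181, 40 and 31.8 CPM, in each library less than PCSK1-positive cells.

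IAPP, islet amyloid polypeptide, passed at a log2 fold change of 4.23 ± 0.50 (adjusted p = 3.24e-07), but its 64 UMIs came from 3 cells, 1 in each library. They gave 319, 21.6 and 2.94 CPM, or 59, 4 and 1 UMIs, in PCSK1-positive cells, against 4.06, 9.35 and 1.30 CPM in PCSK1-negative cells. Without replicate 1 the log2 fold change was 1.07 and did not pass. The other hormones tested did not pass: SCT at -0.52 ± 0.20, UCN3 at 0.45 ± 0.22, NTS at 1.26 ± 0.67 from 9 UMIs, GHRL at -1.20 ± 0.81 from 3 UMIs, NMB at 0.09 ± 0.20 and ADCYAP1 at 0.12 ± 0.57. Of the gut peptides that accompany GLP-1 in L cells, PYY had no UMI in PCSK1-positive cells and CCK had 3, all in replicate 3.

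NEFM (chr8:24913012-24919098) stood at 81.1, 48.6 and 70.6 CPM in PCSK1-positive cells, against 20.6, 14.2 and 14.1 CPM in PCSK1-negative cells. The groups did not overlap, and the log2 fold change was 2.00 ± 0.28 (adjusted p = 2.02e-05), from 48 UMIs in PCSK1-positive cells. Without replicate 3 it was 1.80 and did not pass. Of the 7 neural and glial genes tested, NEFM alone passed and the median log2 fold change was 0.38. Of the 7, 6 were above 0, beside 4849 of all 10161 genes tested. With edgeR 5 of the 7, NEFM among them, had an unadjusted p under 0.05, beside 4.99% of all genes. STMN2, DCX and MAP1B, at 0.34 ± 0.11, 0.63 ± 0.24 and 0.26 ± 0.12, had unadjusted p values under 0.05 only. The 14 genes of the list summed to 1016, 757 and 962 CPM in PCSK1-positive cells, against 654, 548 and 741 CPM in PCSK1-negative cells, and to 1994, 1360 and 1757 CPM in TPH1 cells. SOX10 and TUBB3 had no UMI in PCSK1-positive cells.

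BASP1, a growth-cone protein (chr5:17065598-17276843), stood at 97.3, 64.9 and 121 CPM in PCSK1-positive cells, against 31.7, 57.3 and 49.5 CPM in PCSK1-negative cells. The groups did not overlap, with little between them in replicate 2, and the log2 fold change was 1.00 ± 0.22 (adjusted p = 0.0414). It was 0.84 without replicate 1 and 0.77 without replicate 3, past the threshold in neither.

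Transcription factors gave 2 of the higher genes. ONECUT2, a factor of developing endocrine and neural cells (chr18:57435685-57491297), stood at 211, 70.3 and 100 CPM, that is 39, 13 and 34 UMIs, in PCSK1-positive cells, against 83.9, 45.6 and 41.5 CPM in PCSK1-negative cells. It was higher within each library while the groups overlapped across libraries, at a log2 fold change of 1.09 ± 0.19 (adjusted p = 0.00127), and did not pass without replicate 1 (0.96) or replicate 3 (1.01). The other 17 pan-endocrine factors tested did not pass, and the median of all 18 was -0.08. Of these 17, 5 had an unadjusted p under 0.05, in both directions, beside 4.99% of all genes. Those below 0 were NEUROD1 at -0.40 ± 0.12, RFX6 at -0.51 ± 0.23, ST18 at -0.65 ± 0.20 and LMX1B at -2.82 ± 1.07, and the remaining factor lay above 0. The log2 fold changes of all 18 ran from -2.82 to 1.58, with 8 above 0 and 10 below. LMX1B had 1 UMI in PCSK1-positive cells.

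POU3F2, a neural POU factor that lies outside the naming rule for its low level and was chosen after its values were seen, had 48.6, 10.8 and 32.4 CPM in PCSK1-positive cells, against 10.8, 2.11 and 6.78 CPM in PCSK1-negative cells. It passed at 2.14 ± 0.46 (adjusted p = 0.0283) from 22 UMIs, and without any replicate in turn it did not pass (2.10 to 2.19).

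MALAT1, a nuclear non-coding RNA, made the smallest of the higher calls. It stood at 25108, 15568 and 19141 CPM in PCSK1-positive cells, against 19968, 11101 and 15037 CPM in PCSK1-negative cells, a log2 fold change of 0.30 ± 0.056 (adjusted p = 0.00353). It was higher in 3 of 3 libraries while the groups overlapped, and without any replicate in turn it did not pass (0.26 to 0.32). When PCSK1 was called on the thinned counts the log2 fold change was -0.05.

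Among the genes that fell, SPINK1 (chr5:147824568-147831786) was the most abundant after CRYBA2 and passed under all 20 alternative settings. It stood at 1168, 984 and 1253 CPM in PCSK1-positive cells, against 1768, 2159 and 1716 CPM in PCSK1-negative cells. The groups did not overlap, and the log2 fold change was -0.78 ± 0.087 (adjusted p = 2.02e-07). At 5000 UMIs, 73.0%, 78.4% and 79.4% of PCSK1-positive cells had a SPINK1 molecule, against 93.8%, 92.5% and 88.5% of PCSK1-negative cells. The level was lower still in cells with 2 or more PCSK1 UMIs, at 543, 511 and 991 CPM, against 1313, 1136 and 1378 CPM in cells with 1, which were 7, 9 and 22 cells against 30, 28 and 46. In the same split AFP, APOC3 and EPHX1 were lower and BASP1 and MALAT1 higher in each library, some by little or from few UMIs. AFP stood at 28.6, 0 and 0 CPM with 2 or more, which is near the floor in so few cells. In replicate 1 EPHX1 stood at 171, against 200 CPM, and MALAT1 at 25771, against 24953 CPM. The other genes past the threshold were mixed. CRH stood at 257, 422 and 445 CPM with 2 or more, against 287, 214 and 248 CPM with 1. NEFM stood at 57.1, 22.2 and 164 CPM, against 86.7, 57.1 and 26.1 CPM.

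Of the 8 liver-type secretory genes tested, 2 fell, none rose and the median log2 fold change was -0.20. AFP, alpha-fetoprotein (chr4:73431138-73456174), stood at 64.9, 86.5 and 14.7 CPM in PCSK1-positive cells, against 150, 216 and 18.8 CPM in PCSK1-negative cells, with low levels of both in replicate 3. The log2 fold change was -1.27 ± 0.22 (adjusted p = 0.00127), and without replicate 2 it was -1.10 and did not pass. The 33 UMIs of PCSK1-positive cells lay in 13 cells.

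APOC3, an apolipoprotein (chr11:116829706-116833072), stood at 314, 205 and 138 CPM in PCSK1-positive cells, against 375, 433 and 231 CPM in PCSK1-negative cells. It was lower in 3 of 3 libraries while the groups overlapped, at -0.76 ± 0.13 (adjusted p = 0.00127), and did not pass without replicate 2 (-0.57) or replicate 3 (-0.74). APOA1 and SERPINA1, at -0.55 ± 0.17 and -0.25 ± 0.067, did not pass, and ALB had no UMI in PCSK1-positive cells.

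EPHX1, an epoxide hydrolase abundant in liver (chr1:225810092-225845563), stood at 195, 205 and 141 CPM in PCSK1-positive cells, against 238, 295 and 226 CPM in PCSK1-negative cells. The groups did not overlap, and the log2 fold change was -0.60 ± 0.13 (adjusted p = 0.0366). Without replicate 2 or replicate 3 it was -0.59 and -0.52 and did not pass.

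**Figure D4:**
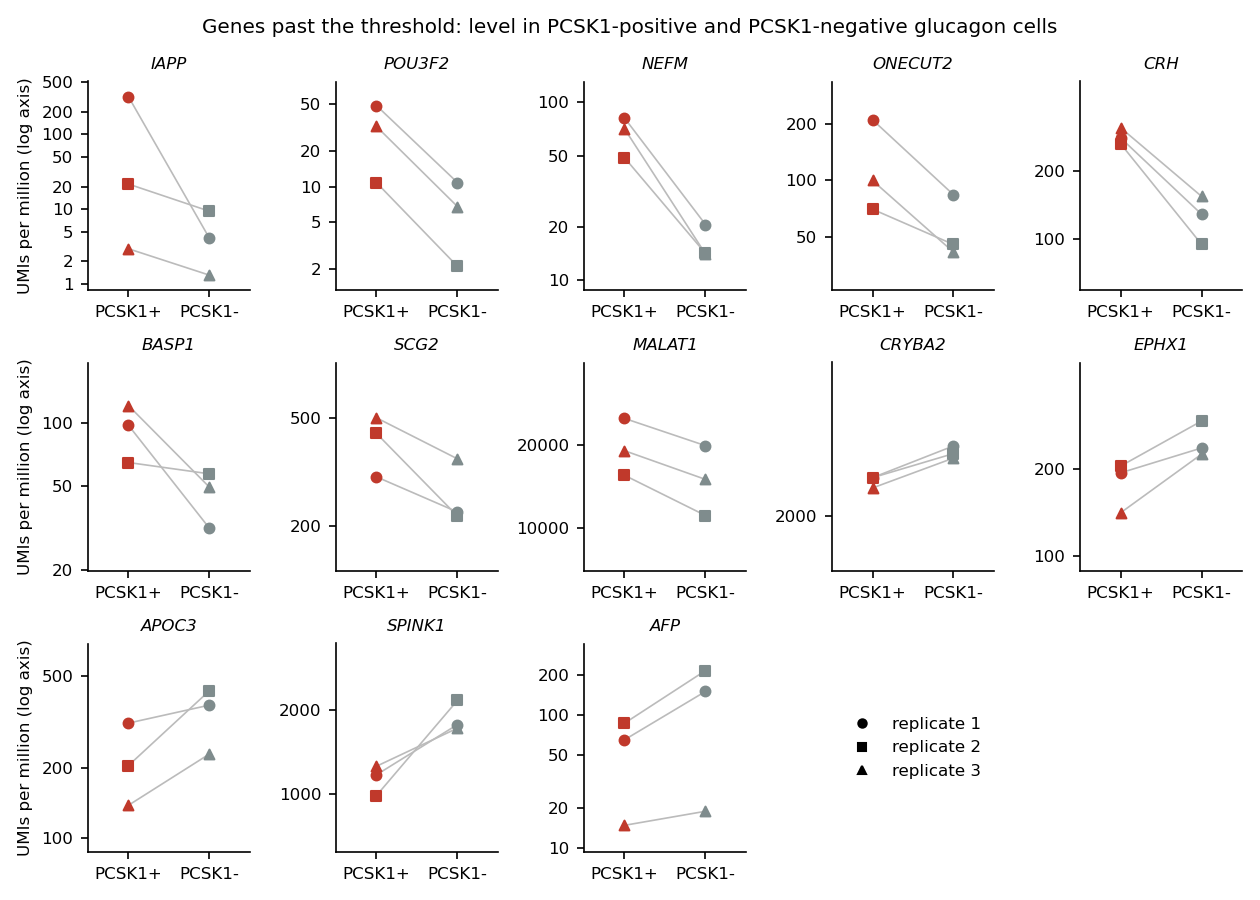
Level of each of the 13 genes past the threshold (CPM of thinned UMIs, log axis) in PCSK1-positive (left, red) and PCSK1-negative (right, grey) glucagon cells, with lines joining the sums of 1 library and shapes for the replicates. All 13 move the same way in the 3 libraries. CRH stands at 265 to 312 CPM in PCSK1-positive cells, against 95.02 to 155 CPM in PCSK1-negative cells, and SPINK1 at 984 to 1253 CPM, against 1716 to 2159 CPM.

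Both groups carried alpha-cell RNA. IRX2, a transcription factor of alpha cells, was at 443, 486 and 441 CPM in PCSK1-positive cells, against 429, 455 and 417 CPM in PCSK1-negative cells. The 19 alpha-cell genes tested had log2 fold changes from -0.32 to 0.77, 8 above 0 and 11 below. With edgeR 5 of them had an unadjusted p under 0.05, beside 4.99% of all genes. None rose past the threshold and 1 fell, at a median of -0.03. That gene, CRYBA2 (chr2:218990189-218993421), a crystallin found in islet endocrine cells, was at 2481, 2481 and 2341 CPM, against 2967, 2842 and 2771 CPM, a log2 fold change of -0.32 ± 0.064 (adjusted p = 0.0127). It did not pass without any of the replicates in turn (-0.33 to -0.31). TTR, transthyretin, chosen after its values were seen, was at 74319, 63005 and 70556 CPM in PCSK1-positive cells, against 74088, 72447 and 74523 CPM in PCSK1-negative cells (-0.18 ± 0.056, adjusted p = 0.656).

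Enterochromaffin RNA was low in PCSK1-positive cells beside its level in TPH1 cells. The 14 genes of that list summed to 568, 670 and 418 CPM in PCSK1-positive cells and 4568, 3493 and 4061 CPM in TPH1 cells, against 415, 477 and 416 CPM in PCSK1-negative cells. TPH1 is in the list and chose the TPH1 cells, so their sum is high in part by that rule. Of 6 tested, which did not include TPH1, none passed, at a median of 0.14, and UGT2B7, ADRA2A and CES1 had no UMI in PCSK1-positive cells. TPH1 had 8, 8 and 1 UMIs in PCSK1-positive cells, held by 4 of the 142 cells, and stood at 43.2, 43.2 and 2.94 CPM, against 3.79, 2.41 and 3.91 CPM in PCSK1-negative cells. Its counts were too low for the main test. TPH1 passed the threshold with no filter on low counts, without replicate 3, without thinning and with cells thinned to 10000 UMIs. FEV, a serotonergic transcription factor, stood at 135, 211 and 129 CPM in PCSK1-positive cells and 406, 533 and 693 CPM in TPH1 cells, against 114, 148 and 108 CPM in PCSK1-negative cells, and did not pass (0.26 ± 0.15).

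SCG2, NEFM, ONECUT2, BASP1 and MALAT1 averaged 744, 137, 295, 92.6 and 40142 CPM in TPH1 cells, each above the mean of 265, 16.3, 57.0, 46.2 and 15369 CPM in PCSK1-negative cells, and SPINK1, APOC3, AFP and EPHX1 were lower there than in PCSK1-negative cells, at 415, 87.9, 5.82 and 118 CPM. By their means, CRH, POU3F2 and CRYBA2 differed the other way, though not in every library. In replicate 1 CRH stood at 181 CPM in TPH1 cells, against 129 CPM in PCSK1-negative cells. CRYBA2 stood there at 2800 CPM, against 2967 CPM. POU3F2 had 1, 0 and 0 UMIs in TPH1 cells. CRH and POU3F2, higher in PCSK1-positive cells, averaged 84.2 and 2.15 CPM in TPH1 cells, against 126 and 6.57 CPM in PCSK1-negative cells, and CRYBA2, lower in PCSK1-positive cells, averaged 3742 CPM in TPH1 cells, against 2860 CPM in PCSK1-negative cells. IAPP averaged 60.9 CPM in TPH1 cells, against 4.90 CPM in PCSK1-negative cells. Leaving out glucagon cells of 2 or more TPH1 UMIs kept 36, 35 and 68 of the 37, 37 and 68 PCSK1-positive cells. Nearly the same cells were thus tested again, and the setting says little about cells with fewer TPH1 UMIs. In that setting 8 of the 13 genes passed: CRH (1.06), NEFM (2.04), IAPP (4.28), SCG2 (0.52), SPINK1 (-0.79), AFP (-1.21), APOC3 (-0.74) and CRYBA2 (-0.36). The other 5 did not pass and kept log2 fold changes close to those with all cells: BASP1 at 1.01, EPHX1 at -0.59, MALAT1 at 0.29, ONECUT2 at 0.97 and POU3F2 at 2.08.

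The remaining lists gave no call in either direction. The 10 gut L cell and intestinal genes had 3 members tested (median 0.29), and CDX1, CDX2 and FFAR4 had no UMI in PCSK1-positive cells. Beta-cell genes had 7 tested (median -0.03), delta-cell genes 5 (0.41) and immature or progenitor genes 8 (0.41). Secretory-granule genes had 13 (-0.03), exocytosis 19 (0.00), ion channels 20 (0.00) and islet receptors 12 (0.19). The unfolded protein response had 20 (-0.07), immediate early and cAMP response genes 18 (-0.06) and heat shock 12 (0.06). Glucose transport and glycolysis had 18 (0.03), oxidative phosphorylation 30 (0.02), amino acid transport 10 (0.08), cholesterol synthesis 16 (-0.12) and antigen presentation 9 (-0.10). Mitochondrially encoded genes had 13 (-0.10), mesenchymal and collagen genes 4 (-0.38) and cycling genes 1 (-0.53).

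**Figure D5:**
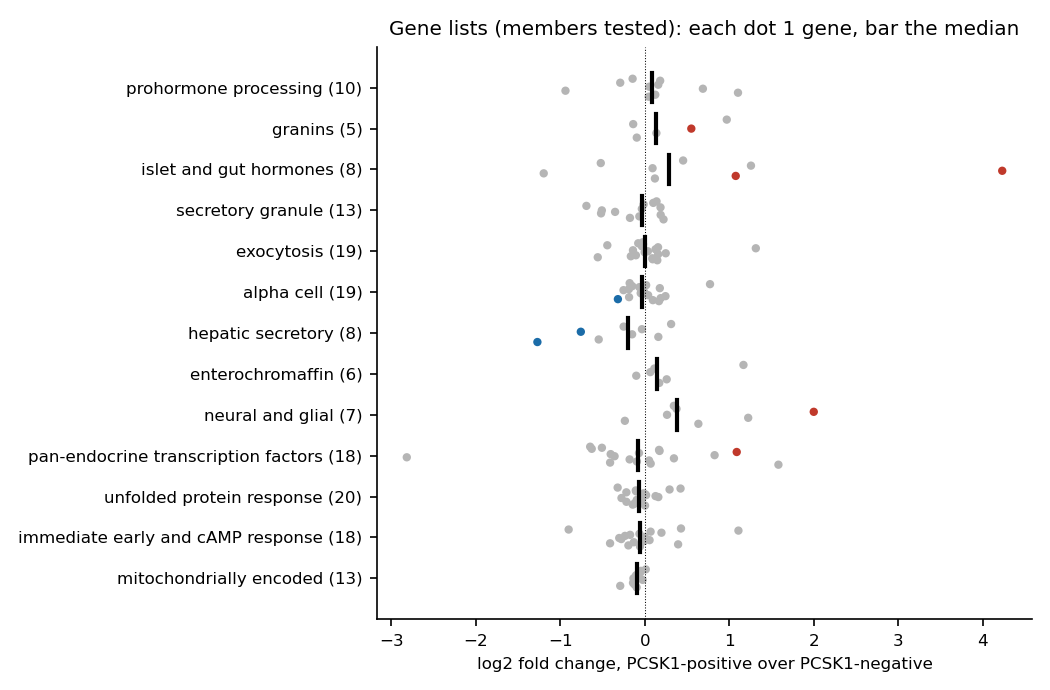
Log2 fold change of PCSK1-positive over PCSK1-negative glucagon cells for the tested members of 13 gene lists (number tested in brackets), each dot 1 gene and each black bar the list's median. Red and blue dots passed the threshold as higher and lower. List medians lie from -0.20 for liver-type secretory genes to 0.38 for neural and glial genes, beside -0.02 over all genes.

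At 5000 UMIs, 67 of the 142 PCSK1-positive cells had a CRH molecule, 106 SCG2, 54 ONECUT2, 41 BASP1, 29 NEFM and 18 POU3F2. Of the 29 cells with NEFM, 18 also had CRH, 25 SCG2, 12 ONECUT2, 11 BASP1 and 1 AFP. Of the 18 cells with POU3F2, 12 had ONECUT2, 11 CRH and 9 BASP1. PCSK2 was found in 48 of the cells and PAM in 33, with 15 holding both, and a TPH1 molecule was found in 2 of the 67 cells with CRH and in 0 of the 29 with NEFM. With 5000 UMIs per cell, a missing molecule does not show that a cell lacked the RNA.

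Of the 13 genes, 9 had promoter windows in the RefSeq table. CRH, SCG2, NEFM and APOC3 had no window there and were not searched. TGACGTCA was in no window of the 9 genes, beside 1.85% of all windows. TGACGT was in a window of 1 gene, ONECUT2, beside 7.98% of all windows. EPHX1, IAPP and MALAT1 had more than 1 window, so a count by gene is not like a share by window.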

How the data were processed

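Single-cell RNA was counted in 3 libraries of 1 group. The deposited matrices are raw, unnormalized UMI counts by gene and barcode, for which the authors used Cell Ranger 4.0.0 and GRCh38, per the submitters' processing notes, and the annotation version is not given in the sources used here. Each matrix has 33538 features, and gene positions are from GENCODE for GRCh38.

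Cells were filtered and classed as described above. Each cell was thinned without replacement to 5000 UMIs. UMIs were summed per library and PCSK1 status, and PCSK1, GCG, INS and SST were left out of the test. The fit was edgeR 4.0.16 in R 4.3.3 with a quasi-likelihood test, two-sided, TMM factors and filterByExpr. The library was the block, since each library gives both sums, and the p-values were Benjamini-Hochberg adjusted over all genes tested. SEs were taken as the fold change (log2) over the root of F. The scripts were tested on simulated counts. Intervals are exact Clopper-Pearson intervals at 95%.

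Doublets were kept, and leaving out those that Scrublet called (scanpy 1.11.5) was an alternative. DESeq2 1.42.0 was another. The lists hold 435 genes in 27 lists, all found. Named genes are all measured members of the prohormone-processing, granin and hormone lists, up to 4 called members of every other list, and up to 10 called genes per direction outside them with a mean of 20 CPM or more. FEV, ERBB3, SEZ6L, TTR, POU3F2 and the other list members given with values were chosen after their values were seen. The cells, lists and tests were chosen with earlier results of these data known. The same UMIs called PCSK1 and filled the libraries, and the p-values do not account for that choice. Some genes of the lists are not reported here.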

Additional observations from a re-analysis of the deposited data

How the results depend on the processing

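The 13 genes past the threshold became 4 with DESeq2 (3 higher, 1 lower), 3 with no replicate block, 54 without thinning, 33 with cells thinned to 10000 UMIs, 6 with PCSK1 called on thinned counts, 6 with another random draw of the thinning, 8 without cells of 2 or more TPH1 UMIs, 1 (SPINK1) at a 15 percent mitochondrial limit and 6 with GCG at 10 percent or more. The 4 with DESeq2 were CRH, MALAT1, NEFM and SPINK1. Leaving out 1 replicate gave 5 to 10. The pairing by library comes from the shared library itself, and without that block CRH, NEFM and SPINK1 passed. All 13 were among the 54 and the 33, and the 6 of another draw were AFP, APOC3, CRH, IAPP, NEFM and SPINK1. The remaining 8 counts lay between 10 and 17, including 13 without the cell richest in each gene, an alternative chosen after seeing the data. SPINK1 passed under 20 of 20 alternatives, CRH under 19 of 20 (not at the 15 percent limit) and NEFM under 17 of 19, and POU3F2 under 7 of 19. Over 253 alternative values of the 13 genes, 158 passed in the same direction, 94 did not pass and 1 reversed: MALAT1, at -0.053 with PCSK1 called on thinned counts. The causes of these changes were not tested.

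The PCSK1-positive share of replicates 1, 2 and 3 was 1.42%, 1.29% and 3.95% after thinning and 0.902%, 1.29% and 2.63% with at least 2 PCSK1 UMIs, and in replicate 3 it was 6.22% with GCG at 10 percent or more. At 104 of 142 cells with a single PCSK1 UMI, PCSK1-negative cells include cells whose PCSK1 RNA was not sampled. Levels under about 20 CPM rest on few UMIs in 37 cells.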
